A study of Mus musculus with 17 samples.

Results

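The replication-dependent histone genes of mouse encode the linker histone H1 and the core histones H2A, H2B, H3 and H4, around which DNA is wrapped. The set described here holds the gene symbols that start with Hist1h, Hist2h, Hist3h or Hist4h and reached 1 TPM (a transcript level scaled for transcript length and for the library total) in at least 2 of the 17 libraries. Of 61 such symbols in a table of 18554, 36 met the rule. They were 4 of 5 H1 genes, 4 of 16 H2A genes, 15 of 17 H2B genes, 3 of 11 H3 genes and 10 of 12 H4 genes. The other 25 symbols stayed below it: 16 were under 1 TPM in every library, 4 of those being listed at 0 throughout, and 9 reached 1 TPM in a single library. The rule used the highest levels only and no difference between groups. Just inside it, the second-highest library of Hist1h2ai had 1.02 TPM and that of Hist1h1a 1.04 TPM. Just outside it, the second-highest library of Hist1h3i had 0.97 TPM and that of Hist1h2bp 0.89 TPM.

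The libraries were made from poly(A) RNA of B cells of C57BL/6 mice, which the sample titles call old, and fall into 5 groups. DM-CLL (n = 2, replicates 4 and 5) and DM (n = 3, replicates 1, 3 and 6) have titles that name both Sf3b1 and Atm and are taken to carry the Sf3b1 mutation and the Atm deletion together. DM-CLL is the group labelled for CLL, chronic lymphocytic leukaemia. Sf3b1 MT (n = 3) carries the Sf3b1 mutation alone, Atm MT (n = 6) the Atm deletion alone, and WT (n = 3) neither. The lesions are described as restricted to B cells, while the driver of that restriction, the part of Atm removed and the age in weeks are not given in the sources used here. Nothing states that replicates are separate mice, so p-values measure only the spread between these libraries, which may be technical.

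Histone mRNAs of this kind are made in bulk when DNA is copied in S phase. Their genes are mostly intronless and clustered, and the coactivator NPAT switches them on together. The mRNA does not normally receive a poly(A) tail: it is cut just after a short stem-loop, which the stem-loop binding protein SLBP holds, and it is destroyed when replication ends. Some of the genes are known to make longer, polyadenylated transcripts in cells that do not divide, by using a poly(A) signal farther downstream. A library of poly(A) RNA therefore samples mainly such longer transcripts and whatever tail-less mRNA is carried along.

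The stem-loop is the sequence that sets these genes apart, so its forms are shown first, as 16 bases of the sense strand with the 4-base loop in capitals between the arms of the 6-base-pair stem. They were read from GENCODE M21 transcripts (GRCm38), in which each of the 36 symbols matched 1 gene. The search took only stems that start with GG and end with CC, with C or T facing A or G between. A stem-loop of this pattern lay 21 to 58 bases after the stop codon in 26 members, and in all 26 the arms pair fully. Much of that pairing was set by the search, and a stem of another form counts as not found. The most frequent form stood in 13 members of classes H1, H2A, H2B and H3, and it is the form of Hist1h1c at chr13:23739512-23739527 on the plus strand.
Form of 13 members, Hist1h1c and Hist1h2bg among them: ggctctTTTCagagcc
Form of 5 H4 members, Hist1h4m among them: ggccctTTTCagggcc
Form of Hist1h2bb, Hist1h2bk and Hist1h3c: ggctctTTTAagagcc
Form of Hist1h4i and Hist2h4: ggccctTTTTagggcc
Form of Hist1h4a: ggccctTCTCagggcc
Form of Hist2h2ac: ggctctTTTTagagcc
Form of Hist1h4b: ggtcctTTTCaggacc
Among the stem-loops that the search could find, the stem divides the classes. All 17 stem-loops outside H4 share 1 stem, that of the form of Hist1h1c, while the 9 of H4 have the stem of the form of Hist1h4m in 8 genes and another in Hist1h4b. Of the 10 members in which no stem-loop was found, 6 are annotated to end at the stop codon, so that the annotation holds no 3′ sequence to search. One of the 10, Hist3h2bb-ps, is annotated as a processed pseudogene.

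Promoters (250 bases before to 50 after the annotated start) were taken from RefSeq on GRCm38.p6, in which 31 of the 36 members matched. A CCAAT box, searched on both strands, occurred in 25 of the 31 promoters (80.6%), against 37.41% of all 32851 promoters in the table. It stood in every matched member of H1 (4 of 4), H2A (4 of 4), H2B (12 of 12) and H3 (2 of 2), but in 3 of 9 H4 promoters. The letters TATAAA occurred in 15 of the 31 (48.4%), against 8.32% of all promoters. The octamer ATTTGCAT, the motif of the Oct family in H2B promoters, occurred in 8 of the 31 (25.8%), against 1.74%: 6 of 12 H2B promoters, 2 of 4 H2A promoters and none of the other classes held it. None of the motifs contains another, and a match describes the sequence without showing a bound factor. Below are 3 promoters, of the most abundant member, of the H2B member with the highest level in a DM-CLL library and of an H4 member low in DM-CLL, with matches to the 3 motifs in capitals, a CCAAT box on the other strand being shown as its reverse complement.
Hist1h1c, chr13:23738557-23738856, plus strand: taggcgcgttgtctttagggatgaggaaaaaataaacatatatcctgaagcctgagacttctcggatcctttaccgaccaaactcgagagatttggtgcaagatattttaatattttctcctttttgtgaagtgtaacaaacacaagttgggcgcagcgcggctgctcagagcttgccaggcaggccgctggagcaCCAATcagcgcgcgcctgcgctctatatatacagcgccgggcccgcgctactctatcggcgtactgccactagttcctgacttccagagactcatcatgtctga
Hist1h2bg, chr13:23571150-23571449, plus strand: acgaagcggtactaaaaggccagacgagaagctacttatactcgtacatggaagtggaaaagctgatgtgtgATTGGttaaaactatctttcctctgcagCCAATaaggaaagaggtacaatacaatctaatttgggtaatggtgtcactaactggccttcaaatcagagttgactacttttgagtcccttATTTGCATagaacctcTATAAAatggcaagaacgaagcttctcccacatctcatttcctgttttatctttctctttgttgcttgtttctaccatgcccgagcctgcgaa
Hist1h4m, chr13:21811496-21811795, plus strand: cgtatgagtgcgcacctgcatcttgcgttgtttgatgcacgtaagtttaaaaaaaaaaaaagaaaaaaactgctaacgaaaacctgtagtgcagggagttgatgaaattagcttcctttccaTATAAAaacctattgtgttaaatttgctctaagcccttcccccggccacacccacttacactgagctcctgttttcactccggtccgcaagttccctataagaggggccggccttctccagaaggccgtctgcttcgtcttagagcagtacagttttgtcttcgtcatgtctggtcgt
The Hist1h1c promoter has 1 CCAAT and neither other motif, the Hist1h2bg promoter has all of them, and the Hist1h4m promoter has TATAAA alone.

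The 28 Hist1 members lie within 2.05 Mb of chromosome 13, from base 21715763 to 23764406 of GRCm38. The 5 Hist2 members lie on chromosome 3 and the 3 Hist3 members on chromosome 11. The coding sequences are close copies of each other. A median of 39.8% of a member's 50-base windows also occurred in an annotated transcript of another gene, and in 11 members at least 50% did. How reads shared by such copies, or by genes that overlap, were assigned is not given in the sources used here, and neither is whether counting used strand, so levels of single members with many shared windows are uncertain.

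All libraries held B cell RNA: the 7 B cell marker genes were at 46.7 TPM or more in each of the 17. The sum of these 7 was lowest in the 3 DM libraries (2185 to 3089 TPM), against 3111 to 5025 TPM in the other 14. Read depth is unknown, because TPM keeps none. The listed symbols summed to 43.1% to 59.7% of the total that TPM scales to, and the lowest such libraries of their groups, WT replicate 2 and Sf3b1 MT replicate 3 at 44.1% each, were also the lowest of their groups in 19 and 26 of the 36 members. DM replicate 3, with the lowest share of all at 43.1%, was instead the highest of its group in 23 members. Atm MT replicate 3, the lowest of its group at 44.9%, was the highest in 12 members and the lowest in 1. DM-CLL replicate 5, at 52.9%, was the lower of its pair in 23 members. Markers of other cells varied between libraries. The summed level of the 8 erythroid markers found was 35093 TPM in DM-CLL replicate 4 and 51.5 TPM in replicate 5, 304 to 2598 TPM in DM, 111 to 1341 TPM in Sf3b1 MT, 24.4 to 2566 TPM in Atm MT and 169 to 427 TPM in WT. The 7 macrophage markers found summed to 646 to 1198 TPM in Atm MT replicates 1 to 4 and to 62.2 to 208 TPM in the other 13 libraries. T cell markers summed to 183 TPM in DM-CLL replicate 4, 11.1 TPM in replicate 5 and 15.4 to 36 TPM elsewhere. Neutrophil markers summed to 1322 and 111 TPM in the same DM-CLL libraries, 445 to 1479 TPM in DM, 145 to 547 TPM in Sf3b1 MT, 88 to 727 TPM in Atm MT and 55.4 to 1041 TPM in WT. The part of these cells in the results was not tested. Of the targeted genes, Sf3b1 averaged 139 ± 1.83 TPM in DM-CLL, 57.4 ± 17.1 in DM, 69.9 ± 19.3 in Sf3b1 MT, 141 ± 31.1 in Atm MT and 105 ± 8.51 in WT (SD). Atm averaged 8.49 ± 1.0 TPM in DM-CLL, 3.41 ± 0.789 in DM, 5.26 ± 1.94 in Sf3b1 MT, 7.5 ± 4.23 in Atm MT and 7.64 ± 1.2 in WT (SD), so Atm MT and WT overlap, and a gene-level value checks the deletion only if the removed part is counted, which the sources used here do not give.

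Levels were low and uneven. Averaged over the 17 libraries, 2 members reached 10 TPM, 6 lay between 5 and 10 TPM, 10 between 1 and 5 TPM and 18 under 1 TPM. Hist1h1c, which encodes the linker histone H1.2, led with a mean of 39.4 TPM and made up 12.3% to 47.1% of the summed TPM of all members (median 31.7%). The H4 genes Hist1h4i (10.3 TPM), Hist1h4m (8.22 TPM) and Hist1h4c (8.0 TPM) and the H2B genes Hist1h2bc (9.77 TPM) and Hist1h2bg (7.79 TPM) followed. Next came the H2A genes Hist2h2aa1 (6.09 TPM) and Hist3h2a (5.19 TPM). Only 6 members had at least 1 TPM in all 17 libraries, and 16 were listed at 0 in at least 1 library. A library had between 14 and 30 members at 1 TPM or more. The fewest, 14, were counted in DM replicates 1 and 6, Sf3b1 MT replicate 3 and WT replicate 2, and the most, 30, in DM-CLL replicate 4. That highest count depends in part on the rule, which 5 members met only with a DM-CLL library.

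**Figure D1:**
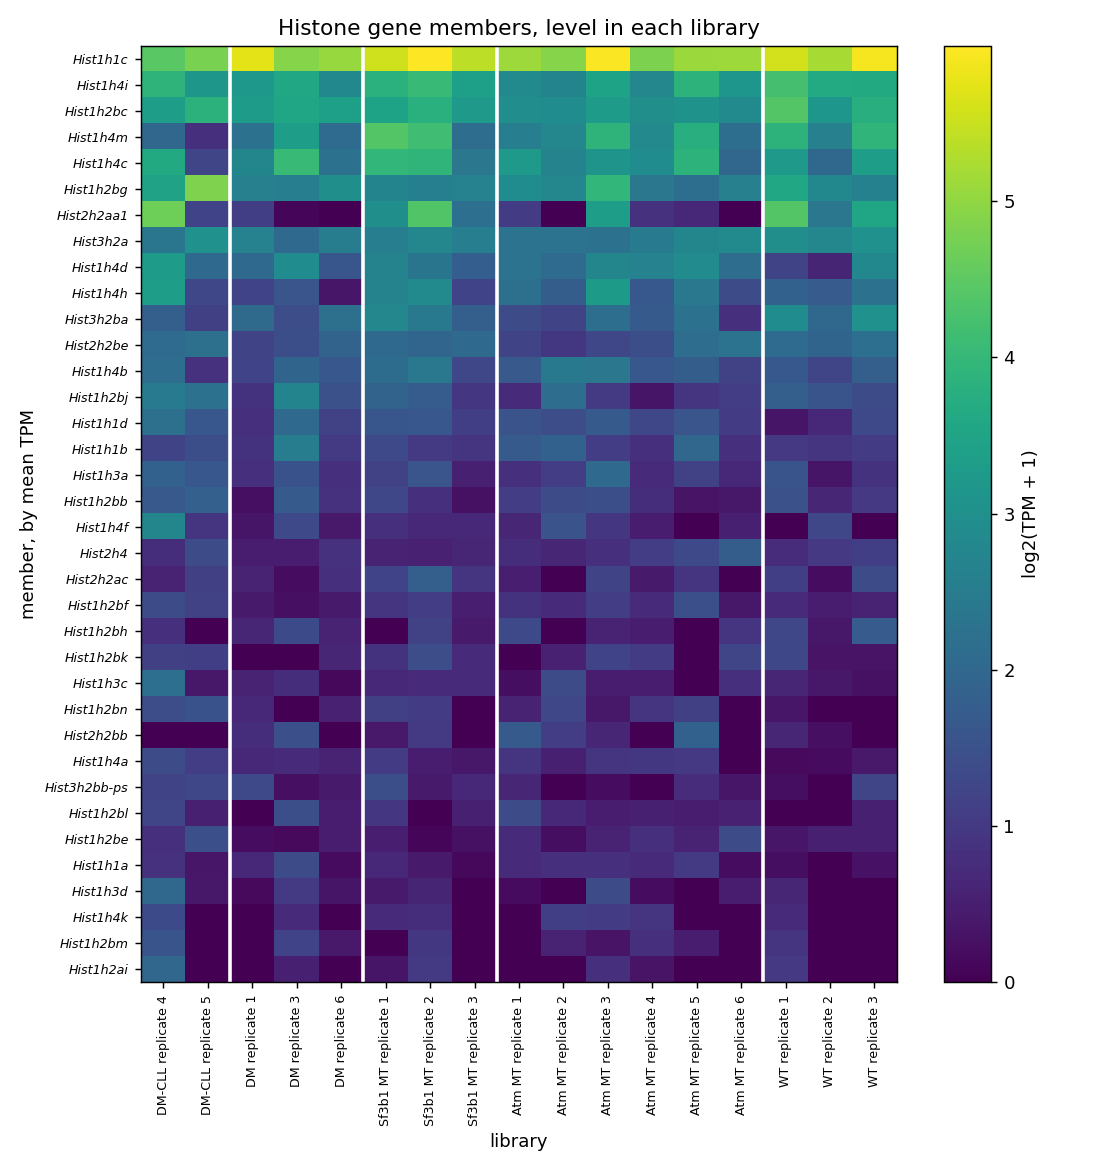
Level of each of the 36 histone members (rows, in order of mean TPM) in each of the 17 libraries (columns, grouped as DM-CLL, DM, Sf3b1 MT, Atm MT and WT), as log2(TPM + 1) by colour. Hist1h1c is bright in every library, the lower 18 rows average under 1 TPM, and DM-CLL replicate 4 has the most members at 1 TPM or more (30). Of the members, 5 met the rule only with a DM-CLL library.

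Summed over all 36 members, the level was 170 and 122 TPM in the DM-CLL libraries. It was 111, 130 and 89.3 TPM in DM, 166, 198 and 101 TPM in Sf3b1 MT, a lowest, median and highest of 89.5, 99.2 and 175 TPM in Atm MT, and 178, 98.3 and 167 TPM in WT. The groups overlap, and 1 library in each of Sf3b1 MT and WT lies far below its group. Both of those are the libraries with 44.1% listed, while Atm MT replicate 3, with 44.9% listed, had the highest sum of its group. The part of the listed share in these sums was not tested. Without Hist1h1c the sums were 149 and 95.8 TPM in DM-CLL, 58.8, 101 and 56.8 TPM in DM, and 131, 62.5 and 108 TPM in WT.

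**Figure D2:**
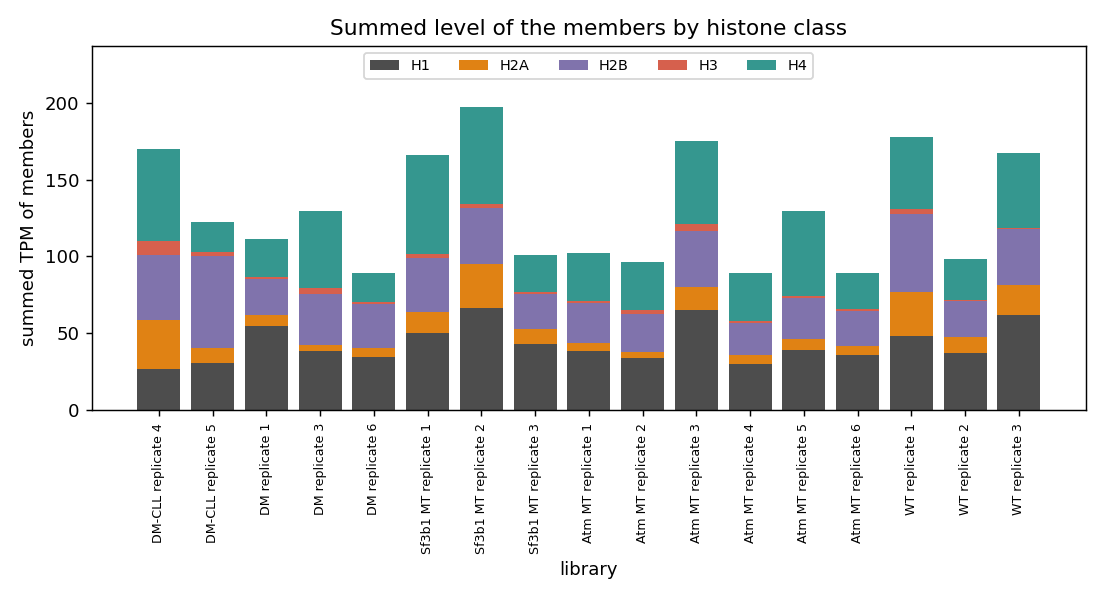
Summed TPM of the members in each library, stacked by histone class (4 H1, 4 H2A, 15 H2B, 3 H3 and 10 H4 genes). Sums run between 89.3 and 198 TPM. H1 makes the smallest part in the DM-CLL libraries, while H2B reaches 60.1 TPM in DM-CLL replicate 5.

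Of the H1 genes, Hist1h1c was lowest in the DM-CLL libraries. Hist1h1c (chr13:23738808-23740367) had 20.95 and 26.4 TPM in DM-CLL, 52.4, 28.9 and 32.5 TPM in DM and 46.2, 62.7 and 41.2 TPM in Sf3b1 MT. It had a lowest, median and highest of 27.2, 33.3 and 61.1 TPM in Atm MT, and 46.6, 35.8 and 58.9 TPM in WT. Both DM-CLL libraries lie below all 15 others. The log2 ratio of DM-CLL to WT was −0.94 (limma adjusted p = 0.0612) and that of DM-CLL to DM −0.62 (limma adjusted p = 0.145), neither passing. Few of its windows (8.5%) occur in other genes. Hist1h1d (chr13:23553262-23560686), the H1.3 gene, had 3.66 and 2.11 TPM in DM-CLL, 0.78, 3.17 and 1.27 TPM in DM, and 2.05, 2.07 and 1.17 TPM in Sf3b1 MT. It had 1.10, 1.78 and 2.26 TPM (lowest, median, highest) in Atm MT, and 0.26, 0.59 and 1.51 TPM in WT. DM-CLL and WT do not overlap for Hist1h1d, and WT holds the lowest values. The other H1 members, Hist1h1b and Hist1h1a, averaged 1.56 and 0.523 TPM, and both were highest in DM replicate 3, at 4.83 and 1.62 TPM (they and the H3 members, Hist1h4f and Hist1h2ai, are named after their values were seen).

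Among the H2A genes, Hist2h2aa1 (chr3:96245497-96246082) varied most. It had 24.4 and 1.32 TPM in DM-CLL, 1.16, 0.05 and 0 TPM in DM, and 6.98, 19.8 and 3.58 TPM in Sf3b1 MT. In Atm MT it was listed at 0 in 2 libraries, with a median of 0.71 and a highest value of 9.09 TPM, and in WT it had 19.8, 4.16 and 10.7 TPM. Every DM library lies below every WT, Sf3b1 MT and DM-CLL library, and in Atm MT 1 library stands apart from the other 5. Annotated genes overlap it on both strands (Gm20634 on its own strand, Gm20633 and Gm47313 on the other). Of its windows 89.4% occur in transcripts of other genes, most often of Gm20634, so a level of this locus may be split between symbols. Hist3h2a, whose transcript overlaps that of Trim17, was steadier: 4.08 and 7.17 TPM in DM-CLL, 5.36, 3.13 and 4.79 TPM in DM, 4.95, 5.88 and 4.89 TPM in Sf3b1 MT, 3.75 to 6.21 TPM in Atm MT and 6.84, 5.80 and 7.23 TPM in WT.

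The 15 H2B genes summed to 42.3 and 60.1 TPM in DM-CLL, 23.4, 33.5 and 28.7 TPM in DM, 35.2, 36 and 23.2 TPM in Sf3b1 MT, 20.9 to 36.1 TPM in Atm MT and 50.9, 23.8 and 36.5 TPM in WT. On the deposited scale both DM-CLL sums lie above those of DM, Sf3b1 MT and Atm MT, and WT replicate 1 lies between them. Median-ratio scaling, used below, divides the DM-CLL libraries by 1.3 and 1.15 and the DM libraries by 0.826, 0.769 and 0.945. Divided by these factors, the sum of DM replicate 3 lies above that of DM-CLL replicate 4. So do those of Sf3b1 MT replicates 1 and 2 (factors 0.983 and 0.967) and Atm MT replicate 3 (factor 0.889). The order of the sums given above therefore holds on the deposited scale only. Hist1h2bg (chr13:23571396-23572013), whose promoter is shown above, had 9.99 and 27.6 TPM in DM-CLL. It had 5.11, 4.93 and 6.95 TPM in DM, 5.52, 4.98 and 5.33 TPM in Sf3b1 MT, a lowest, median and highest of 3.48, 5.45 and 14.7 TPM in Atm MT, and 11.1, 6.01 and 5.25 TPM in WT. The DM-CLL values clear all DM and Sf3b1 MT libraries but not Atm MT replicate 3 or WT replicate 1, and the higher of them is DM-CLL replicate 5, the library with few erythroid transcripts. Hist1h2bc (chr13:23684199-23692908), a gene known for polyadenylated transcripts and here annotated as spliced, had 9.16 and 13.5 TPM in DM-CLL, 8.85, 10.6 and 9.38 TPM in DM, 10.2, 13.1 and 8.45 TPM in Sf3b1 MT, 6.33 to 8.70 TPM in Atm MT, and 19.9, 7.81 and 12.7 TPM in WT.

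At lower levels, 3 further H2B members had higher values in both DM-CLL libraries than in any DM or WT library, an order against DM that 47.3% of all genes share and against WT 32.2%. Hist1h2bf (chr13:23573736-23574196) had 1.62 and 1.26 TPM in DM-CLL, 0.34, 0.19 and 0.35 TPM in DM, and 0.68, 0.38 and 0.51 TPM in WT. Hist1h2bn (chr13:21754123-21754503) had 1.68 and 1.83 TPM in DM-CLL, 0.59, 0 and 0.46 TPM in DM, and 0.29, 0 and 0 TPM in WT. Hist1h2be (chr13:23583670-23621124), which overlaps Hist1h1e on its strand, had 0.76 and 1.74 TPM in DM-CLL, 0.14, 0.12 and 0.38 TPM in DM, and 0.29, 0.44 and 0.45 TPM in WT. No level is listed for Hist1h1e. All of these values of the 3 H2B members are below 2 TPM. Their windows are shared to 65.8%, 86.4% and 16.3%, the closest partner being Hist1h2bg for Hist1h2bf and Hist1h2bk for Hist1h2bn. Hist1h2bg itself shares 49.7%, so the levels of Hist1h2bf and Hist1h2bg may rest in part on the same reads. In Atm MT the same genes reached 1.75, 1.41 and 1.59 TPM, so that only Hist1h2bn stayed higher in DM-CLL than in every Atm MT library. Hist2h2be, another gene known for polyadenylated transcripts, had 3.24 and 3.62 TPM in DM-CLL, 1.35, 1.73 and 2.74 TPM in DM, 2.90 to 3.14 TPM in Sf3b1 MT, 0.96 to 3.88 TPM in Atm MT and 2.84 to 3.59 TPM in WT. Hist3h2ba had 2.5 and 1.2 TPM in DM-CLL, 3.21, 1.66 and 3.67 TPM in DM, 2.51 to 5.85 TPM in Sf3b1 MT, 0.77 to 3.77 TPM in Atm MT and 6.50, 3.08 and 7.14 TPM in WT.

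The 3 H3 members, Hist1h3a, Hist1h3c and Hist1h3d, averaged 1.32 TPM or less. Together they summed to 9.19 and 2.71 TPM in DM-CLL, 1.11 to 3.61 TPM in DM, 1.11 to 3.16 TPM in Sf3b1 MT, 1.06 to 5.14 TPM in Atm MT and 0.57 to 3.04 TPM in WT. The highest sum is that of DM-CLL replicate 4 alone. The same library held the highest value of Hist1h3c (3.53 TPM), Hist1h3d (3 TPM), the H4 gene Hist1h4f (5.73 TPM) and the H2A gene Hist1h2ai (2.93 TPM). Hist1h3c and Hist1h2ai each reached 1 TPM in only 1 library outside DM-CLL. They met the rule through DM-CLL replicate 4, so their high values there are partly set by the rule.

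The H4 genes encode 1 protein from many copies. Hist1h4i had 13.9 and 8.04 TPM in DM-CLL, 8.12, 11.1 and 6.01 TPM in DM, 13.1, 15.5 and 9.46 TPM in Sf3b1 MT, 5.48 to 13.6 TPM in Atm MT and 17.6, 11.6 and 11.4 TPM in WT. Hist1h4m (chr13:21811746-21812147) was lowest in DM-CLL: it had 2.95 and 0.78 TPM in DM-CLL, 3.81, 9.04 and 3.29 TPM in DM, and 20, 16.8 and 3.42 TPM in Sf3b1 MT. It had 3.46, 5.95 and 13.9 TPM (lowest, median, highest) in Atm MT, and 13.6, 5.14 and 14.1 TPM in WT. Both DM-CLL libraries lie below every other library for this gene. Of its windows 89.8% also occur in other genes, most often in Hist1h4n. No level is listed for Hist1h4n, so how reads were divided between the 2 genes cannot be examined. Hist1h4a (chr13:23760692-23761230) had 1.64 and 1.14 TPM in DM-CLL, 0.60, 0.64 and 0.48 TPM in DM, 0.31 to 1.05 TPM in Sf3b1 MT, 0 to 0.99 TPM in Atm MT, and 0.12, 0.13 and 0.33 TPM in WT. The DM-CLL values of Hist1h4a are the highest of all libraries and those of WT, apart from 1 Atm MT and 1 Sf3b1 MT library, the lowest.

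The replicates of DM-CLL differed among H4 genes that share a stem. Hist1h4c had 11.5 TPM in DM-CLL replicate 4 and 1.38 TPM in replicate 5, beside 3.78 to 15.4 TPM in DM, 4.23 to 14.6 TPM in Sf3b1 MT, 2.97 to 13.7 TPM in Atm MT and 3 to 9.28 TPM in WT. Hist1h4h had 9.33 and 1.44 TPM in the same order of replicates, beside 0.29 to 2.01 TPM in DM, 1.32 to 6.25 TPM in Sf3b1 MT, 1.60 to 8.69 TPM in Atm MT and 2.31 to 3.82 TPM in WT. Hist1h4d had 8.82 and 3.11 TPM, beside 2.03 to 6.50 TPM in DM, 2.45 to 5.37 TPM in Sf3b1 MT, 3.29 to 6.44 TPM in Atm MT and 0.54 to 5.91 TPM in WT. Over all members, DM-CLL replicate 4 was the higher of the pair in 23 and replicate 5 in 12.

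**Figure D3:**
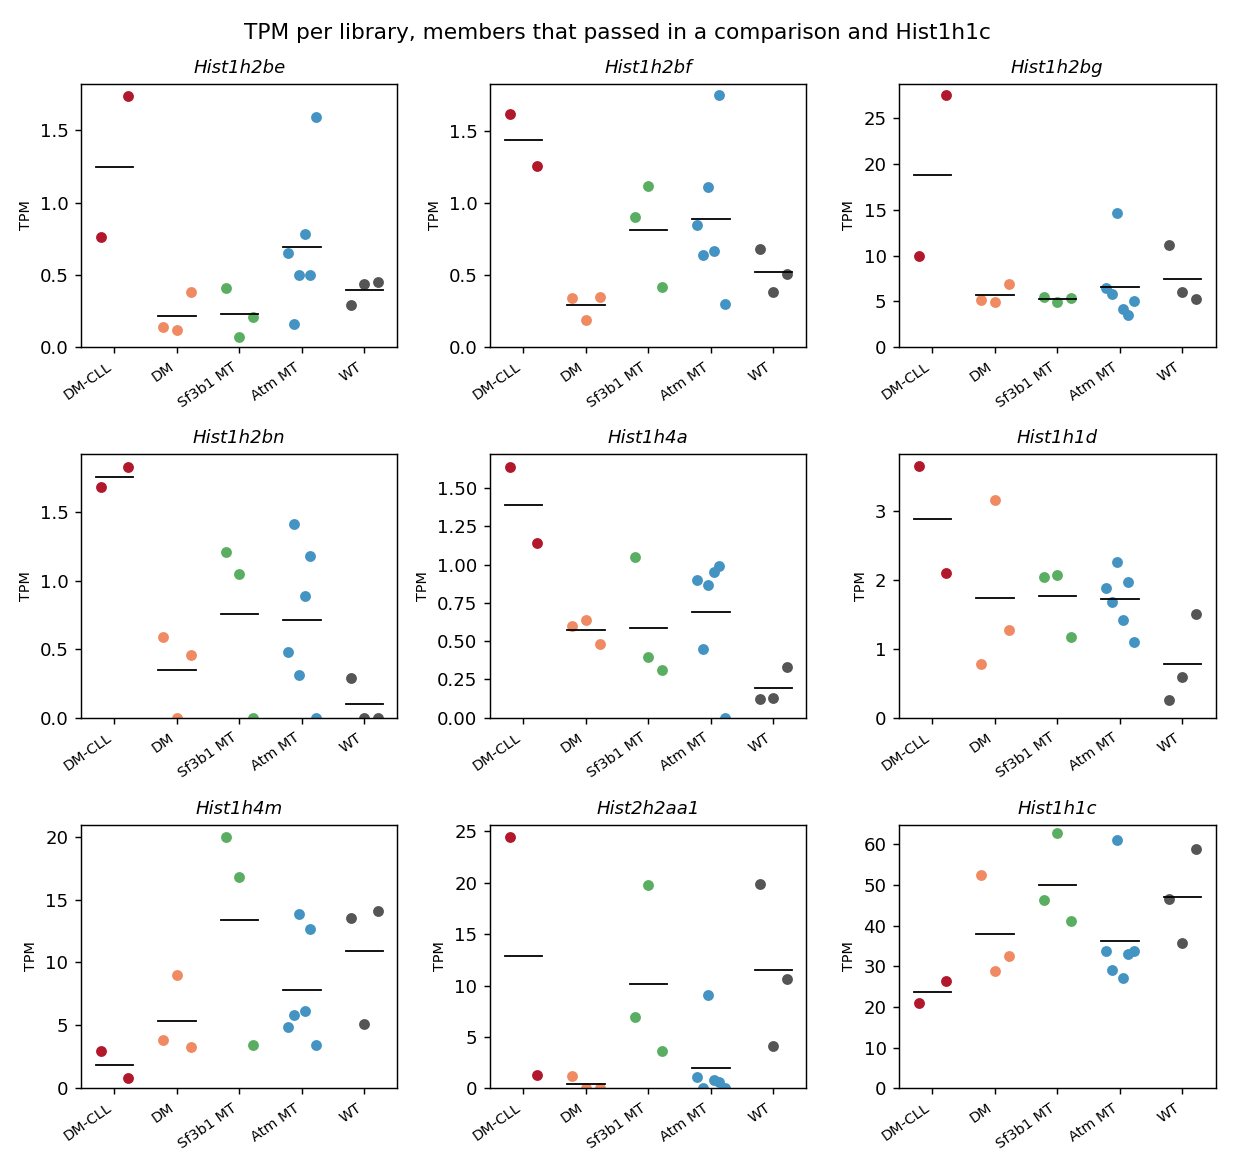
TPM of 9 histone genes in each library, by group (points are libraries, bars are group means; each panel has its own axis starting at 0). The DM-CLL points lie above those of DM and WT for Hist1h2be, Hist1h2bf and Hist1h2bn and below those of every other group for Hist1h4m and Hist1h1c.

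The members also differ in how far their annotated transcript runs. In 13 members a transcript runs at least 100 bases past the stem-loop (840 bases in Hist1h1c and at most 4884, in Hist1h1d), and the median of their mean levels was 3.23 TPM. In another 13 it ends within 100 bases, with a median of 1.15 TPM, and in the 10 without a stem-loop the median was 0.643 TPM. Of the 8 members with a mean of at least 5 TPM, 5 run at least 100 bases past the stem-loop (Hist1h1c, Hist1h4i, Hist1h4c, Hist1h2bg and Hist3h2a). The poly(A) signal AATAAA stood in the last 60 bases of a transcript in 7 members. These are descriptions over genes, which are not replicates. The order by transcript end has exceptions: Hist1h4m ends 3 bases after its stem-loop and Hist2h2aa1 35 bases after it, and both averaged above 5 TPM. Of 6 genes listed for known polyadenylated transcripts, 5 are members (Hist1h1c, Hist1h2bc, Hist1h2be, Hist2h2be and Hist3h2a), with a median of their means of 5.19 TPM against 1.05 TPM over all members, and Hist4h4 is not, its highest value being 0.41 TPM.

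**Figure D4:**
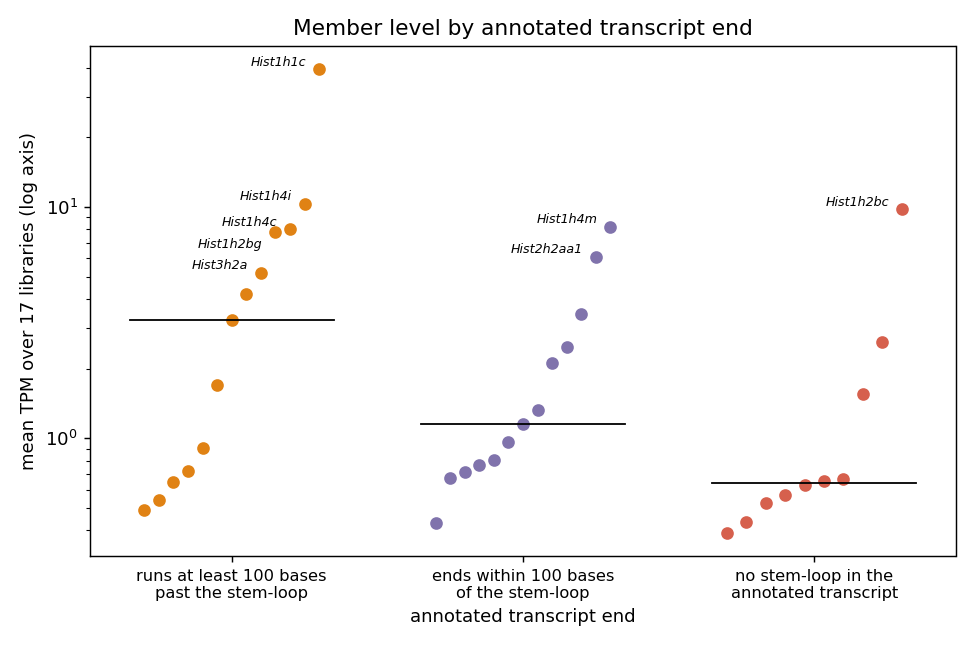
Mean TPM over the 17 libraries (log axis) of each member, by where its annotated transcript ends relative to the stem-loop (13, 13 and 10 members; horizontal lines are medians of 3.23, 1.15 and 0.643 TPM). Genes with a mean of at least 5 TPM are named.

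For each comparison, limma was fitted on log2(TPM + 1) of 9898 genes, and a gene passed at a Benjamini-Hochberg adjusted p under 0.05. Log2 ratios below are on that scale, on which low genes are compressed. In the bulk libraries, fewer cells making a transcript and less transcript per cell cannot be told apart.

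The first comparisons ask what each lesion changes alone. Between Sf3b1 MT and WT, 0 of 36 members passed in limma, against 0.0707% of all genes, and 1 had an unadjusted p under 0.05 (10.6% of all genes). The members' median log2 ratio was 0.15, with 24 above 0, while the median of all genes was −0.11. Ratios lay between −0.59 and 0.72, the smallest adjusted p in limma being that of Hist1h1d (log2 ratio 0.67, adjusted p = 0.452). H4 genes had a median of 0.29 and H2B genes one of −0.05.

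Between Atm MT and WT, 0 of 36 members passed in limma as well, against 0.647% of all genes, but 9 had an unadjusted p under 0.05, which is 25% of the members against 11.3% of all genes. They point both ways. Above 0 were Hist1h4d (0.93), Hist1h1d (0.65), Hist1h4a (0.47) and Hist1h1a (0.54), the last singled out after its value was seen. Below 0 were Hist2h2aa1 (−2.44, limma adjusted p = 0.122), Hist3h2ba (−1.06, limma adjusted p = 0.169), Hist1h2bc (−0.76, limma adjusted p = 0.139), Hist1h4i (−0.70, limma adjusted p = 0.265) and Hist3h2a (−0.44, limma adjusted p = 0.331). Without WT replicate 2 Hist1h2bc passed (−1.07, limma adjusted p = 0.0420), and without Atm MT replicate 3 Hist2h2aa1 did (−2.91, limma adjusted p = 0.0190). Without WT replicate 1 the ratio of Hist1h2bc was −0.45 (limma adjusted p = 0.644) and that of Hist2h2aa1 −1.96 (limma adjusted p = 0.51). The ratio of Hist1h4d was 0.47 without WT replicate 2 and 1.55 without WT replicate 3, and that of Hist3h2a was −0.12 without Atm MT replicates 1 to 4. The median of the members was 0.11 and that of all genes −0.05.

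DM was compared with WT, and with each single lesion, to see both lesions together before leukaemia. Against WT, 1 of 36 members fell and none rose, against 2.23% of all genes called in either direction and 2.08% called lower. The member that fell was Hist2h2aa1, with 1.16, 0.05 and 0 TPM in DM and 19.8, 4.16 and 10.7 TPM in WT (log2 ratio −3.04 ± 0.76 SE, limma adjusted p = 0.0498). The call lies at the threshold: it was lost after both other scalings, with a pseudocount of 0.1, without the filter and with only these groups fitted (limma adjusted p = 0.0608 to 0.131). It was also lost in 11 of 15 omissions of 1 library, among them each of the 3 DM and 3 WT libraries. The other members stayed between −0.91 and 0.64, and 2 of the 36 had an unadjusted p under 0.05 (24% of all genes). Their median was −0.06, above that of all genes (−0.25), and it was 0.06 after median-ratio scaling, which brings the median of all genes to 0.03 and its calls to 15 higher and 12 lower (15 and 206 on the deposited scale).

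Against the single lesions no member passed. Between DM and Atm MT 0 of 36 passed in limma (6.05% of all genes, 1.54% higher and 4.52% lower, or 275 genes higher and 111 lower after median-ratio scaling), 4 at an unadjusted p under 0.05 (28% of all genes), with a median of −0.04, or 0.09 after median-ratio scaling, and −0.21 over all genes. Between DM and Sf3b1 MT 0 of 36 passed in limma (0.121% of all genes, 0.0404% higher and 0.0808% lower), 3 at an unadjusted p under 0.05 (11.1% of all genes), with a median of −0.15 and −0.11 over all genes. Hist1h4h had the lowest ratio to Atm MT (−1.06, limma adjusted p = 0.113), and Hist2h2aa1 the lowest to Sf3b1 MT (−2.80, limma adjusted p = 0.202). The interaction (DM − Sf3b1 MT − Atm MT + WT) asks whether both lesions add up. It passed in 0 of 36 members in limma and in 0% of all genes, with 2 members at an unadjusted p under 0.05 (5.52% of all genes). Its median was −0.24 over the members and −0.09 over all genes, and 11 of 36 members (30.6%) lay above 0, against 37.9% of all genes. Of the H4 genes 9 of 10 lay below 0, but they share windows with each other and are not separate observations.

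The comparison of DM-CLL with DM asks what differs between leukaemic and non-leukaemic B cells of one genotype. Here 4 of 36 members rose and none fell, which is 11.1%, against 31.2% of all genes called in either direction, 29.2% higher and 1.97% lower. All 4 encode H2B, the largest class, and 4 of 15 H2B genes is a share below the 29.2% of all genes called higher. They are Hist1h2bg (log2 ratio 1.42 ± 0.45 SE, limma adjusted p = 0.0249), Hist1h2bn (1.06 ± 0.38, limma adjusted p = 0.0421), Hist1h2bf (0.91 ± 0.27, limma adjusted p = 0.0177) and Hist1h2be (0.86 ± 0.28, limma adjusted p = 0.0296). Their fold changes on this scale are 2.68, 2.08, 1.88 and 1.82, and in all 4 both DM-CLL libraries exceed all 3 DM libraries, as they do in 9 of the 36 members and in 47.3% of all genes. Hist1h2be reached 1 TPM in 1 DM-CLL library and 1 Atm MT library, so that it too met the rule through DM-CLL. In all, 5 members would not have met it without the DM-CLL libraries. The share of members called is below that of all genes. The members' median, 0.53, was near the median of all genes, 0.43, and 27 members lay above 0 (75.0%, against 80.1% of all genes). By class the medians were −0.14 for H1, 0.58 for H2A, 0.62 for H2B, 0.70 for H3 and 0.46 for H4. A total of 7 members had an unadjusted p under 0.05 (43.4% of all genes), and Hist2h2aa1 had the highest ratio of all (2.55, limma adjusted p = 0.0589), with 24.4 TPM in DM-CLL replicate 4 and 1.32 TPM in replicate 5.

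The H2B calls changed with the scale and with the omission of single libraries. After median-ratio scaling, which moves the median of all genes to −0.03, 0 members rose and 1 fell, Hist1h1c, while all genes gave 873 called higher and 749 lower, against 2889 and 195 on the deposited scale. After rescaling to a common listed total 0 passed. Without DM replicate 3 the count was 0, without DM replicate 1 it was 1, without DM-CLL replicate 4 it was 2 and without DM-CLL replicate 5 it was 7, of which 1 was shared. DM replicate 3 and DM-CLL replicate 4 hold the highest S phase sums of the series and the most erythroid transcripts of their groups, whose part in these counts was not tested. After median-ratio scaling the ratios of the 4 H2B genes were 0.95 for Hist1h2bg, 0.84 for Hist1h2bn and 0.69 each for Hist1h2bf and Hist1h2be, and none of them passed. Their sign is no support, because the 4 were picked as called higher in this same comparison.

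DM-CLL was also compared with WT. Of the 36 members 3 rose and 1 fell, again 11.1%, against 13.1% of all genes called in either direction, 10.3% higher and 2.81% lower. Hist1h2bn (1.34 ± 0.38 SE, limma adjusted p = 0.0256), Hist1h1d (1.15 ± 0.35, limma adjusted p = 0.0364) and Hist1h4a (1 ± 0.28, limma adjusted p = 0.0274) rose, each with a WT mean below 1 TPM. Hist1h4a reached 1 TPM in both DM-CLL libraries and 1 other, so that it met the rule through the group in which it was called higher. Hist1h4m fell (−2.06 ± 0.65, limma adjusted p = 0.0472). In all 4 the DM-CLL and WT libraries do not overlap, which holds for 13 of the 36 members (36.1%) and for 43.9% of all genes. At an unadjusted p under 0.05 there were 12 members, or 33.3%, against 26.9% of all genes. The median of the members was 0.45 and that of all genes 0.19, by class 0.40 for H1, −0.13 for H2A, 0.66 for H2B, 0.86 for H3 and 0.26 for H4.

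The calls against WT changed with the setting too. After median-ratio scaling 0 rose and 1 fell, Hist1h4m, and after rescaling to a common listed total 2 rose (Hist1h2bn and Hist1h4a) and 2 fell (Hist1h4m and Hist1h1c). Over all genes median-ratio scaling gave 759 called higher and 577 lower, against 1021 and 278 on the deposited scale. Without WT replicate 1 the count was 1, without DM-CLL replicate 4 it was 1, and without DM-CLL replicate 5 or Atm MT replicate 3 it was 6. DM-CLL against DM and against WT share the DM-CLL libraries, so that Hist1h2bn, which rose in both, is not independent in them.

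**Figure D5:**
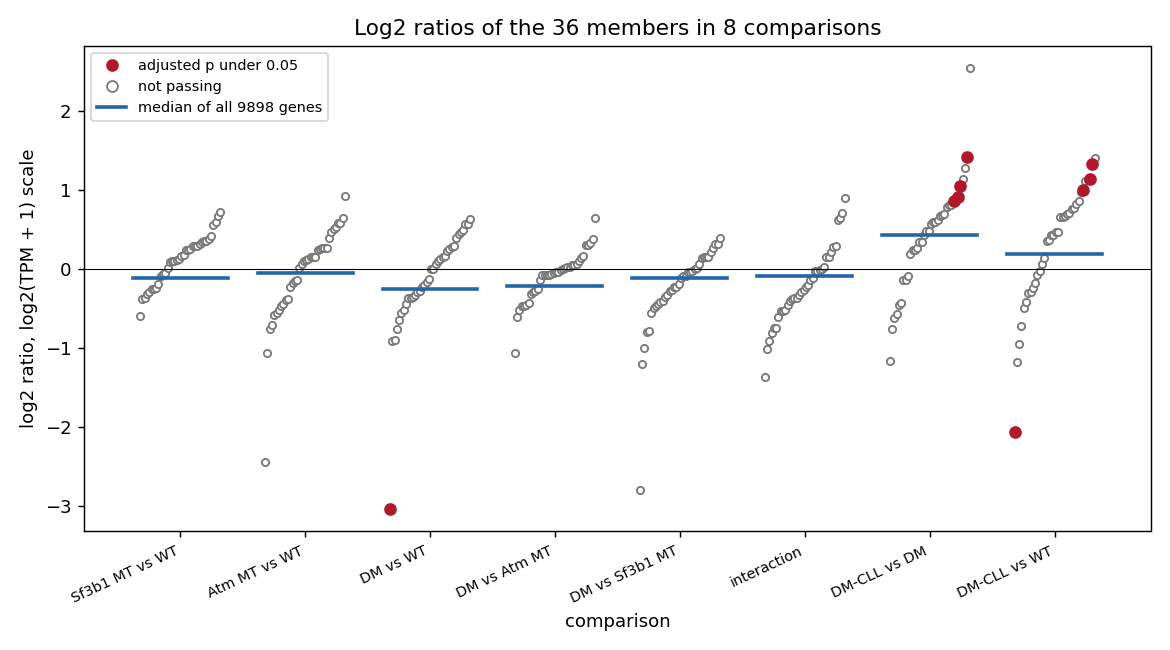
Log2 ratio (log2(TPM + 1) scale) of each of the 36 members in each of 8 comparisons, sorted within a comparison, with members at an adjusted p under 0.05 in red and the median of all 9898 genes as a blue line. Red points number 1 in DM vs WT and 4 in each comparison with DM-CLL, and the members scatter around the blue line in all 8.

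Genes that serve histone mRNAs were described from lists chosen with these members. Of 15 tested genes of histone mRNA 3′-end processing and transcription, 8 rose in DM-CLL against DM, none fell, and all 15 had ratios above 0 (median 0.62). Over all genes 29.2% were called higher, 80.1% lay above 0 and the median was 0.43. After median-ratio scaling, chosen for this list after the data were seen, 1 of the 15 was called (Zcchc6), 11 lay above 0 and the median was 0.11, and rescaling to a common listed total left the same single call. Examples on the deposited scale are Pou2f1, which encodes the octamer factor Oct-1 (1.16 ± 0.37 SE, limma adjusted p = 0.0255), Casp8ap2, a component of histone locus bodies (1.15 ± 0.35, limma adjusted p = 0.0201), and Zcchc6, a terminal uridylyltransferase (1.14 ± 0.25, limma adjusted p = 0.00361). Npat, the histone gene coactivator and a neighbour of Atm, averaged 5.46 ± 0.262 TPM in DM-CLL, 2.78 ± 0.417 in DM, 3.02 ± 0.751 in Sf3b1 MT, 4.26 ± 1.58 in Atm MT and 4.28 ± 0.727 in WT (SD). Its ratio of DM-CLL to DM passed on the deposited scale (0.78 ± 0.28 SE, limma adjusted p = 0.0455) and under neither other scaling. Against WT, the same 15 genes all had ratios below 0 in DM (median −0.41, all genes −0.25), with 0 passing in limma, but after median-ratio scaling 6 lay above 0 and the median was −0.08. Slbp, singled out after its values were seen, had 61 and 18.6 TPM in DM-CLL, 19.4, 32.5 and 20.7 TPM in DM, 15.9 to 20.4 TPM in Sf3b1 MT, 15.9 to 33.0 TPM in Atm MT and 21.5 to 29.4 TPM in WT. Its highest libraries are those with the most S phase transcripts of their groups: DM-CLL replicate 4, DM replicate 3 and Atm MT replicate 2.

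Histone variants, whose mRNAs mostly carry poly(A) tails and are mostly made throughout the cell cycle, were more abundant in sum. The 11 genes listed summed to 733 to 1306 TPM in a library, against 89.3 to 198 TPM for the members. Single variants were not all high: group means of H2afj lay between 0.117 and 5.95 TPM and those of H2afx between 9.59 and 26.9 TPM. H3f3a averaged 455 ± 24.5 TPM in DM-CLL, 420 ± 37.2 in DM, 475 ± 54.5 in Sf3b1 MT, 417 ± 96.6 in Atm MT and 426 ± 75.9 in WT (SD), and H3f3b 365 ± 86.7, 322 ± 128, 356 ± 52.2, 295 ± 48.2 and 383 ± 64.2 TPM in the same order of groups. Of 9 tested variants, 2 rose in DM-CLL against DM: H2afj (2.05 ± 0.64 SE, limma adjusted p = 0.0237) and H2afx (1.26 ± 0.43, limma adjusted p = 0.0350), H2afx encoding the H2A form phosphorylated by ATM at DNA breaks. All 9 had ratios above 0 there (median 0.34), but 2 of 9 (22.2%) is below the 29.2% of all genes called higher. After median-ratio scaling 0 of 9 passed in limma, 4 lay above 0 and the median was −0.14, and after rescaling to a common listed total H2afj alone passed. Of 15 tested histone chaperones, 1 rose, Nap1l1 (0.89 ± 0.31 SE, limma adjusted p = 0.0364), with a median of 0.31. This 6.67% and the median lie below the 29.2% called higher and the median of 0.43 over all genes. After median-ratio scaling 0 of 15 passed in limma and the median was −0.22. No gene of these lists passed in any of the other 7 comparisons in limma. The share of all genes that passed in those ran from 0% in the interaction to 13.1% in DM-CLL against WT.

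S phase genes were summed as transcripts of dividing cells, whether B cells or others. Replication itself was not measured, and the cells these transcripts came from were not tested. The 27 S phase genes summed to 1164 TPM in DM-CLL replicate 4 and 554 TPM in replicate 5. They summed to 1118 TPM in DM replicate 3 against 465 and 433 TPM in DM replicates 1 and 6. The sums were 421 to 528 TPM in Sf3b1 MT, 319 to 834 TPM in Atm MT and 349 to 667 TPM in WT. In every group but Atm MT, the library with the highest S phase sum also had the highest histone member sum. These were WT replicate 1 (667 and 178 TPM), Sf3b1 MT replicate 2 (528 and 198 TPM), DM replicate 3 (1118 and 130 TPM) and DM-CLL replicate 4 (1164 and 170 TPM). Lower ranks differed in part: WT replicate 2 had 571 and 98.3 TPM, and WT replicate 3 had 349 and 167 TPM. DM replicate 3 was the highest of its group in 23 of 36 members and DM-CLL replicate 4 in 23. Atm MT replicate 2, with the highest S phase sum of its group (834 TPM), had a member sum of 96.2 TPM. Atm MT replicate 3 had an S phase sum of 350 TPM and the highest member sum of its group, 175 TPM. Of all genes, 31.2% passed in DM-CLL against DM, 13.1% in DM-CLL against WT and 6.05% in DM against Atm MT. Of the 27 S phase genes, 0 passed in limma in any comparison. Their median ratio was 0.39 in DM-CLL against DM (all genes 0.43; −0.05 after median-ratio scaling), 0.65 in DM-CLL against WT (all genes 0.19), 0.19 in DM against WT (all genes −0.25) and 0.51 in DM against Atm MT (all genes −0.21). In the interaction all 27 had values above 0 (median 0.52), where the histone members had a median of −0.24. Pcna, the replication clamp, averaged 186 ± 51.8 TPM in DM-CLL, 159 ± 59.9 in DM, 102 ± 3.01 in Sf3b1 MT, 119 ± 59.2 in Atm MT and 125 ± 28.2 in WT (SD).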

How the data were processed

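Poly(A) RNA of mouse B cells was extracted with a PrepEase RNA Spin kit and made into NEBNext Ultra libraries (per the labels' protocols). Deposited by the authors were TPM values for 18554 symbols in 17 libraries; the submitters' processing notes name STAR and mm10. The quantifier, annotation, versions and strandedness are not given in the sources used here. TPM keeps no counts, so depth is unknown and neither intervals nor floors could be given.

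Symbols starting with Hist1h to Hist4h and reaching 1 TPM in at least 2 libraries were taken as members. The members and the gene lists were chosen with earlier results of these data known. The text names members that passed in any of 8 comparisons, the 12 with the highest mean TPM, Sf3b1, Atm and Npat, and, per list, up to 3 genes that passed or else the 2 most abundant.

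Groups were read from the genotype labels. limma 3.58.1 in R 4.3.3, with a mean trend, was fitted on log2(TPM + 1) of 9898 genes, 2-sided, with Benjamini-Hochberg adjustment over all of them at 0.05. Comparisons with DM-CLL used all 17 libraries and the others the 15 without DM-CLL. The fit was tested on simulated data. Other steps used Python 3.11.15, pandas 2.3.3, numpy 2.4.6 and matplotlib 3.10.9. Stem-loops came from a search of GENCODE M21 transcripts with a fixed pattern, promoters from RefSeq (GRCm38.p6), and shared windows from exact 50-base matches between transcripts.

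Alternatives were a pseudocount of 0.1, no filter, scaling each library by its median ratio to the geometric mean (7769 genes reaching 1 TPM in each library; median-ratio scaling), rescaling to a common listed total, fitting only the groups compared, adding the replicate number as a block, omission of Atm MT replicates 1 to 4 together, and omission of each library in turn. The refits of the related lists under both scalings, and the shares of genes whose groups do not overlap, were added after seeing the data.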

Additional observations from a re-analysis of the deposited data

Results flagged for a closer look

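A single library stood far from the other 5 in the Atm MT group in 4 of the 17 named members that could be examined there, and it was Atm MT replicate 3 each time. It had 61.12 TPM of Hist1h1c (next highest 33.8 TPM), 14.67 TPM of Hist1h2bg (next 6.5 TPM), 8.69 TPM of Hist1h4h (next 4.24 TPM) and 9.09 TPM of Hist2h2aa1 (next 1.1 TPM). Chance gives such a gap in about 1 of 20 groups of normally distributed values. The 17 members were measured in the same libraries and may share reads, so 4 of 17 cannot be held against that rate. Atm MT replicate 3 also had the highest erythroid (2566 TPM) and macrophage (1198 TPM) marker sums of its group, and their part in these values was not tested. No other group held 4 or more libraries.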

How the results depend on the processing

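Counts of members passed were 0 in every setting and omission for Sf3b1 MT against WT, DM against Atm MT, DM against Sf3b1 MT and the interaction, and no ratio changed sign among those refitted, which were named members with an unadjusted p under 0.05. Other members' ratios were not followed, and medians of related lists did change sign, as given with each list. For Atm MT against WT (0 members) omissions of 1 library gave 0 to 1. For DM against WT (1 member) the count was 0 with a pseudocount of 0.1, without the filter, after median-ratio scaling, after rescaling to a common listed total and with only these groups fitted, and 0 to 1 in the omissions. For DM-CLL against DM (4) it was 1 after median-ratio scaling, 0 after rescaling and 2 with only these groups, and 0 to 7 in the omissions. For DM-CLL against WT (4) it was 2 with a pseudocount of 0.1, 2 without the filter, 1 after median-ratio scaling and 1 with only these groups, and 1 to 6 in the omissions. Where the cause is not the smaller number of libraries or genes, it was not tested. Omitting either DM-CLL library leaves a lone one, whose spread is then borrowed from the other groups. Omitting Atm MT replicates 1 to 4 together, the libraries with high macrophage markers, left the counts at 0 for Atm MT against WT, DM against Atm MT and the interaction. Read depth, which would limit the low members most, is unknown.

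The labels number replicates alike across groups, and whether the numbers pair the libraries is not known. Deviations from group means of same-numbered libraries correlated at −0.363 to 0.364, against −0.497 to 0.497 for different numbers. These ranges cannot decide it, because deviations within a small group are forced to oppose each other, as mirror images in DM-CLL. With the replicate number as a block the count was 1 for Atm MT against WT, 1 for DM-CLL against DM (Hist1h2bg), 1 for DM-CLL against WT (Hist1h4f, none of the 4 above) and 1 for DM against WT (Hist2h2be, not Hist2h2aa1, adjusted p = 0.0617).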
